A study of Mus musculus with 17 samples.

Results

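The deposited RNA table held 45 protein-coding genes of cell adhesion, extracellular matrix and cell guidance, among 2615 listed genes of which 2259 were protein-coding. They were chosen by name, from 20 families of gene symbols. The families with listed members were the cadherins, protocadherins, claudins, integrins, laminins, ADAM and ADAMTS proteases, matrix metalloproteinases, semaphorins, Robo receptors, Eph receptors, ephrins, contactins and genes named for leucine-rich repeats. Collagens, plexins, Slits, netrins and laminin beta chains also fell under the rule, and no member of these was analysed here.

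The libraries came from mouse oocytes with or without a genotype that deletes EHMT2, the enzyme that places dimethylation on lysine 9 of histone H3, a mark of silent chromatin. All donor mice were C57BL/6J females, 8 weeks old, and all carried *Ehmt2* (flox/flox), so the controls shared the floxed alleles. The 3 *Ehmt2* GKO libraries (replicates 3, 4 and 5) also carried Gdf9-Cre, a recombinase under an oocyte promoter that removes exons 4 to 20, and the 3 control libraries (replicates 1, 2 and 6) had no such transgene in their genotype. The oocytes were labelled as metaphase II (MII), the stage at which the egg is ovulated, and were superovulated. The paper on these data reports that few *Ehmt2* GKO oocytes extruded a polar body and that their homologous chromosomes failed to separate. Meiotic stage may therefore differ between the groups despite the label, and it cannot be told apart from genotype. By the same paper, dimethylation of lysine 9 was nearly lost in *Ehmt2* GKO oocytes at an earlier, transcribing stage. It was re-established later, and at metaphase its fluorescence did not differ from control. Poly(A) RNA was amplified by a method for minute inputs (SMART-Seq) before sequencing. Nothing in the labels says that the libraries came from separate animals, so P values measure the spread between these libraries only, and part of it may be technical. These are bulk libraries, in which fewer cells of a type and less RNA per cell cannot be told apart.

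Cadherins join cells to each other, claudins seal the contacts of epithelia, and integrins hold cells to a matrix of laminins and collagens that ADAM and MMP proteases cut. Guidance receptors such as Robo, Eph and plexin proteins read ligands on other cells or in the matrix and steer growing axons and migrating cells. In the ovary the same families serve the contact of the oocyte with its follicle cells, and after fertilization E-cadherin and integrins hold the cells of the early embryo together.

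Every listed gene had already passed the authors' own test on the same 6 libraries. The deposited adjusted P was below 0.05 in 2615 rows and at or above it in 0. The statistics below therefore describe the size and spread of differences among genes selected for differing. Reads over the listed genes came to between 4060653 and 4258350 per library, and the 10 most abundant listed genes took 15.01% to 16.14% of them. The depth over all genes is unknown, and *Ehmt2* itself was not analysed here, so the labelled genotypes have no support from its counts. Of 14 oocyte markers 6 were listed, with summed levels of 42380 to 51460 normalized counts in control oocytes and 51430 to 53130 in *Ehmt2* GKO oocytes. Under the call defined below, 1 of the 6 was lower, as were 16.9% of all listed genes tested.

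Libraries labelled *Ehmt2* GKO held more RNA of 30 of these genes and less of 15. Under the call used here, a fold above 2 with an adjusted P below 0.01 in edgeR's quasi-likelihood test, 13 of the 45 genes rose and 5 fell. The genes that rose were *Cdh12*, *Ephb1*, *Adamts2*, *Mmp3*, *Lrrtm4*, *Itga10*, *Robo1*, *Cldn34d*, *Cdh8*, *Sema6a*, *Adam8*, *Lrrn4* and *Itgb6*. Those that fell were *Cldn15*, *Epha5*, *Lrrtm3*, *Lrrtm2* and *Cntn6*. All 45 genes passed the filter on low counts, as did 2516 of the 2615 listed genes.

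The share of members called was 40.0%, beside 35.7% of all 2516 listed genes tested and 31.9% of the other 2153 protein-coding genes tested. Of the members 28.9% were called higher, against 18.7% of all genes tested, and 11.1% were called lower, against 16.9%. The median log2 fold change was 0.51 over the members, -0.32 over all genes tested and 0.32 over the other protein-coding genes. Selection for differing left few genes near 0, so a median can change sign with a small change in the share above 0. That share was 66.7% of members (30 of 45), 49.4% of all genes tested and 50.5% of the other protein-coding genes. All genes tested and the other protein-coding genes were thus nearly alike, although their medians differed in sign. Members that were not called lay on both sides, 17 above 0 and 10 below.

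Control and *Ehmt2* GKO libraries did not overlap in normalized counts for 45 of the 45 members. This holds for 98.3% of all listed genes tested and so follows from how the table was made. The largest adjusted P among members was 0.00996, for *Adam17*, so within this table it was the fold and not the P value that decided the calls. The exact two-sided permutation test of 3 against 3 libraries cannot go below 0.10, and it gave 0.1 for each member.

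**Figure D1:**
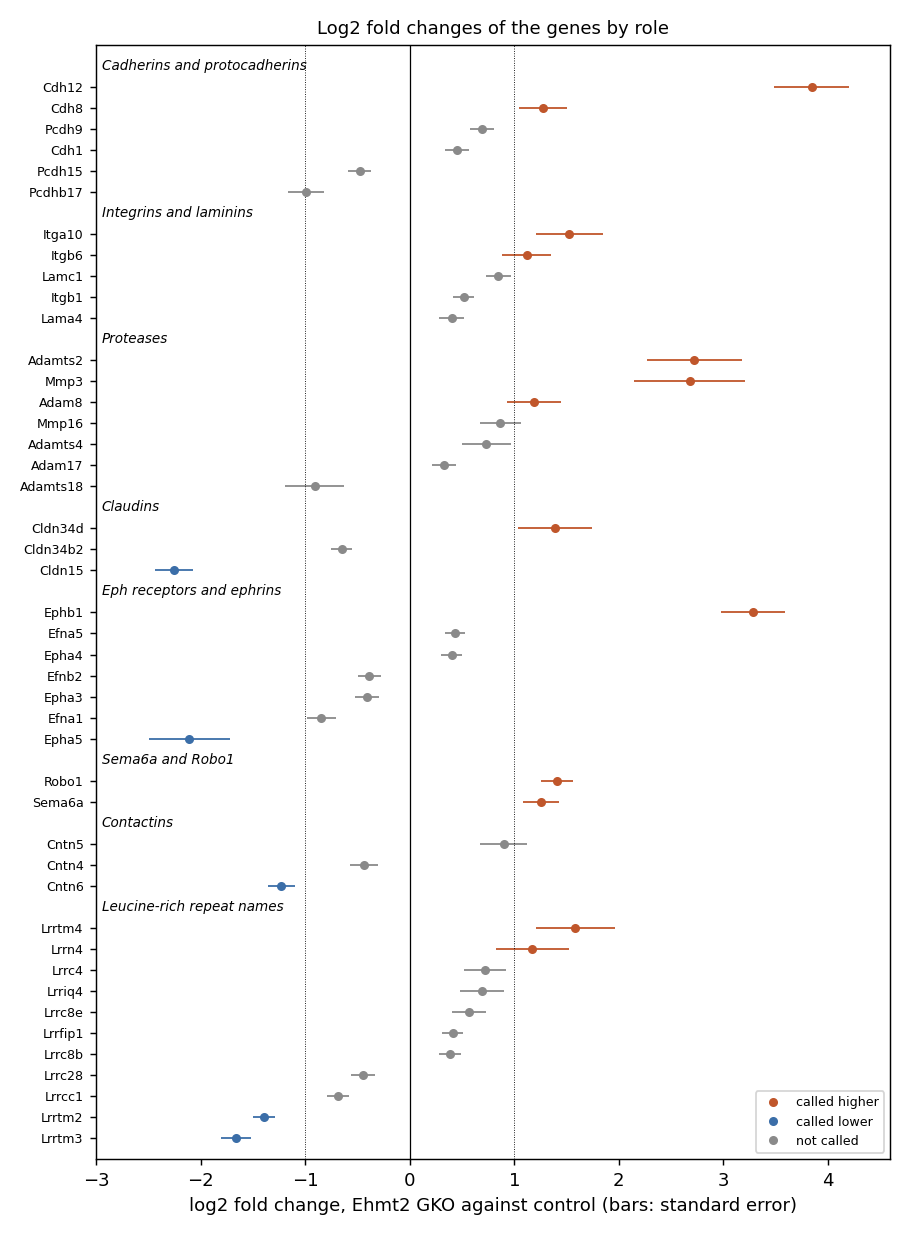
Log2 fold change of *Ehmt2* GKO against control oocytes (horizontal axis) for 44 of the 45 genes, grouped by role, with bars for the standard error of the edgeR fit on 3 libraries per group. Coloured points are the 13 genes called higher and the 5 called lower, and grey points are 26 of the 27 not called, which lie between -0.99 and 0.90.

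Genes that rose mostly had low levels in control oocytes, and most of those that fell had higher ones. The control level is itself part of the fold. A gene rare in control oocytes passes the row selection and the count filter mainly by being high in *Ehmt2* GKO oocytes. The split is thus in part built into the table. The 13 that rose had a median control level of 29.8 normalized counts, counts scaled to a common library size, and the highest of them, *Robo1*, stood at 246.3. The 5 that fell had a median of 679.0. Among the 20 members below 150 normalized counts in control oocytes, 12 rose and 1 fell, and among the 25 at or above it 1 rose and 4 fell. Over all listed genes tested, 52.4% of those below that level were called higher and 30.0% lower, and 2.98% of those at or above it were called higher and 10.8% lower. Rises were thus more frequent at low level in the members and in the whole table alike. Falls were also more frequent at low level in the whole table, whereas 4 of the 5 members that fell were at or above it.

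In reads, the 13 genes that rose together had 692 to 779 per control library and 2015 to 2285 per *Ehmt2* GKO library. The 5 that fell had 3609 to 4151 and 1293 to 1423. All 45 members together took 1.2% to 1.26% of the listed reads in control oocytes and 1.32% to 1.36% in *Ehmt2* GKO oocytes. The called genes together thus had fewer reads in *Ehmt2* GKO oocytes, and abundant genes that were not called, such as *Lrrfip1* and *Pcdh9*, had more.

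**Figure D2:**
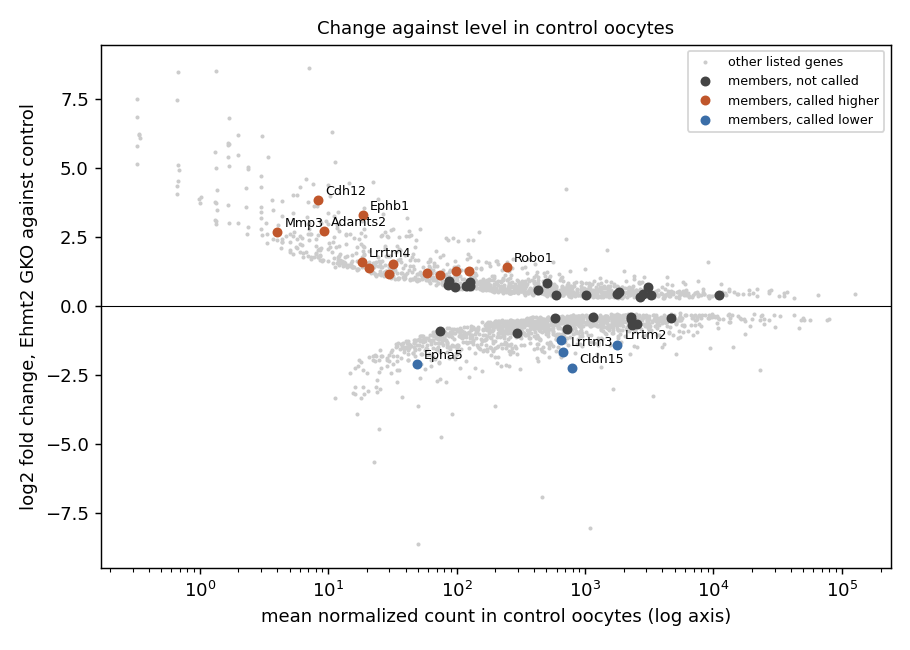
Log2 fold change of *Ehmt2* GKO against control oocytes (vertical axis) against the mean normalized count in control oocytes (horizontal log axis), with the 45 members over all other listed genes tested. The members that rose lie at the left, at control means of 4.01 to 246.3, and 4 of the 5 that fell lie at 648.5 to 1783. Genes with a control mean of 0 have no place on the log axis and are not drawn.

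To show how widely the sequence context of called members varied, promoters are printed for a pair that rose, *Adamts2* and *Mmp3*, and a pair that fell, *Epha5* and *Lrrtm3*. They were chosen because members of each pair differed widely in CG content. CG is the dinucleotide at which mammalian DNA is methylated. Each runs from 250 bases before to 50 bases after the start site, 5′ to 3′ on the gene's strand, from RefSeq on GRCm38.p6, with each CG in capitals.

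Adamts2, chr11:50601835-50602134, plus strand: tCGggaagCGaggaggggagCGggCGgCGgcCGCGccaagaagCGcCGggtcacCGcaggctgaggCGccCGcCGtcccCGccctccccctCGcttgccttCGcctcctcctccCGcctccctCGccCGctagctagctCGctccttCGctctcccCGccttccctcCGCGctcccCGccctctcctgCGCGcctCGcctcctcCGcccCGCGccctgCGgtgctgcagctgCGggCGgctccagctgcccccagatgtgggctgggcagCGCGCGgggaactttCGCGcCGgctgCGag
Mmp3, chr9:7445572-7445871, plus strand: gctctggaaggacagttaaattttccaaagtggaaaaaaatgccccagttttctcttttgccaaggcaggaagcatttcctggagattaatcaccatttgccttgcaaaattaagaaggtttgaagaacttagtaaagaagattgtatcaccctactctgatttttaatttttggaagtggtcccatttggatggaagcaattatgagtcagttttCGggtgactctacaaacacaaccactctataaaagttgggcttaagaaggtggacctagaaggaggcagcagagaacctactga
Epha5, chr5:84417333-84417632, minus strand: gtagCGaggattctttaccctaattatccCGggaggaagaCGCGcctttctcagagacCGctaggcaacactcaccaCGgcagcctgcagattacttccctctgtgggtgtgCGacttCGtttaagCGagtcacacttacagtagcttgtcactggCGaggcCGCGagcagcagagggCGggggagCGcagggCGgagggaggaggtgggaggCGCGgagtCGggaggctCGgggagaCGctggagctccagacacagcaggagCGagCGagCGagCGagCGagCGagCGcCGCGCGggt
Lrrtm3, chr10:64090206-64090505, minus strand: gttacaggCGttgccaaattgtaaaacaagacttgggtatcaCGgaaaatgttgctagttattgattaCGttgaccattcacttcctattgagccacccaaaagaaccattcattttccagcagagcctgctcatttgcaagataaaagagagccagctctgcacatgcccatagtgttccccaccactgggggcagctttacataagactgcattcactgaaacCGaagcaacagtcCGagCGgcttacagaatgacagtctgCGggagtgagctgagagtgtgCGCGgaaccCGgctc

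The *Adamts2* window held 41 CG and that of *Mmp3* 1, a contrast for which the pair was chosen. Both transcripts were rare in control oocytes and rose by like amounts. *Epha5* held 30 and *Lrrtm3* 10, and both fell. A RefSeq promoter matched 31 of the 45 members. Over these 31 the median was 17 CG in 300 bases, with a range of 0 to 51, beside 20 for 1523 other listed protein-coding genes and 7 for all 32851 RefSeq promoters. At least 1 CG was found in 93.5% of members, 98.6% of the other listed genes and 94.6% of all promoters. The median was 8 CG in the 12 matched members that rose, 10 in the 3 that fell and 22 in the 16 not called. Over the other listed genes these medians were 12 for 219 that rose, 17 for 233 that fell and 21 for 1036 not called. Promoters were not matched for 14 members, among them *Sema6a*, *Lrrtm2*, *Cldn15*, *Pcdhb17*, *Lamc1*, *Lama4*, *Mmp16*, *Cdh1*, *Adamts4*, *Cldn34b2*, *Lrrcc1*, *Pcdh15* and *Cntn4*.

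**Figure D3:**
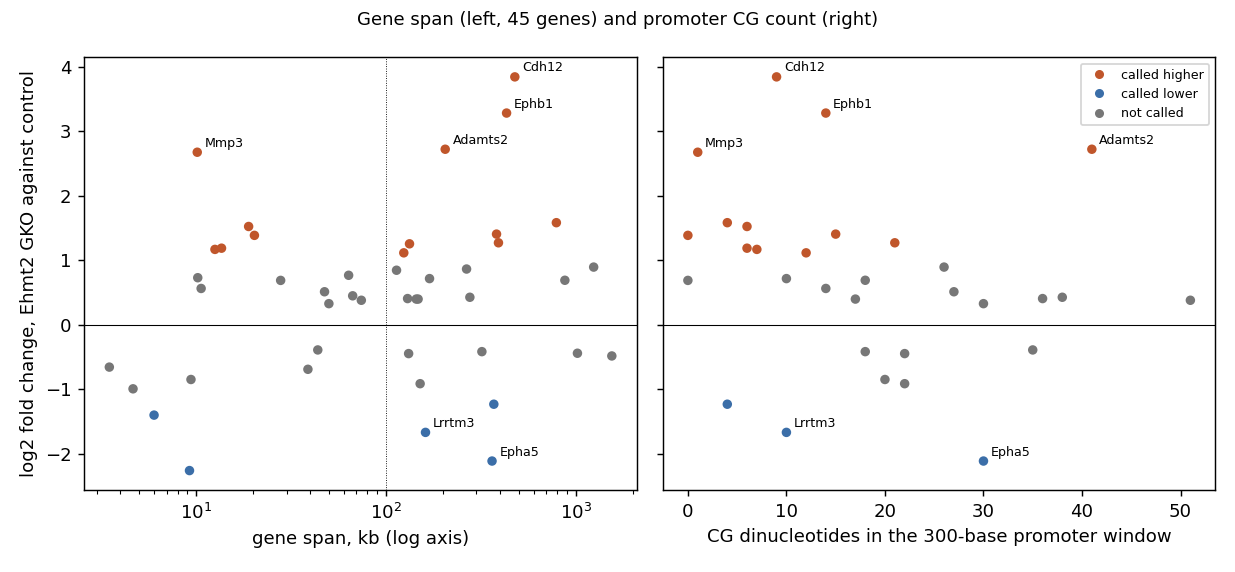
Log2 fold change of the members (vertical axis) against gene span in kb (left, log axis, 45 genes) and against the number of CG dinucleotides in the 300-base promoter (right, 31 genes). The dotted line marks 100 kb, and coloured points are called genes, which occur on both sides of it. On the right all called genes but *Epha5* with 30 CG and *Adamts2* with 41 lie at 0 to 21 CG.

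Members were long genes. Their median span was 130 kb, against 27.9 kb for the other listed protein-coding genes, and 25 of 45 (55.6%) exceeded 100 kb against 17.2%. Of the 25 long members 44.0% were called, 8 higher and 3 lower, and of the 20 shorter ones 35.0%. Among other listed protein-coding genes of that length 31.0% of 371 were called. In the deposited annotation 55.6% of members carried a plasma membrane term and 53.3% a cell adhesion term, against 14.6% and 3.6% of the 2214 other protein-coding genes. A term for the extracellular space or matrix was carried by 26.7% against 8.2%. Another annotated gene overlapped 25 members, and 11 shared exon bases with one. Counting is not stated to use strand, so reads of such pairs cannot be told apart where exons are shared.

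Among the cadherins, calcium-dependent proteins of cell-to-cell contact, *Cdh12* had the largest change of the 45 genes. This type II cadherin, best known from brain, lies on chromosome 15 from 21111452 to 21589533 (GRCm38). In order of replicate number, here and below, the control libraries had 10, 6 and 9 reads and those of *Ehmt2* GKO oocytes 137, 144 and 85. Every *Ehmt2* GKO library was thus far above every control library. Its level went from 8.37 ± 2.16 to 121.8 ± 32.8 normalized counts (mean ± SD, n = 3 libraries each, as in all values below), a log2 fold change of 3.84 (SE 0.356, adjusted P = 1.72e-07). A locus on the same strand within its span, *Gm38234* (chromosome 15, 21180157 to 21180577; biotype TEC, a locus still awaiting experimental proof), had 0 reads in each control library and 18, 18 and 19 in the *Ehmt2* GKO libraries, with no exon bases shared with *Cdh12*.

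*Cdh8*, another type II cadherin of the nervous system, also rose. Its counts were 103, 71 and 124 in control oocytes and 246, 288 and 189 in *Ehmt2* GKO oocytes, without overlap and with a log2 fold change of 1.27 (SE 0.226, adjusted P = 0.000118). The neighbouring noncoding RNA *A330008L17Rik* had 11, 6 and 8 reads in control and 31, 17 and 40 in *Ehmt2* GKO libraries, a log2 fold change of 1.79 (adjusted P = 0.00161). *Cdh1*, which encodes E-cadherin, was far more abundant and was not called, at 1758 ± 49.2 and 2404 ± 382 normalized counts (log2 fold change 0.45). It was the library of *Ehmt2* GKO replicate 5, with 2852 reads, that stood highest for *Cdh1*, against 2218 and 2160 in the other *Ehmt2* GKO libraries.

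Of the protocadherins, none was called. *Pcdh9*, a protocadherin of neurons and among the 5 most abundant members, had 2616, 3424 and 3303 reads in control oocytes and 4618, 4993 and 5535 in *Ehmt2* GKO oocytes (log2 fold change 0.69). *Pcdh15*, known from the tip links of hair cells in the ear, was lower, at 2269 ± 281 and 1626 ± 121 normalized counts (-0.48). *Pcdhb17*, a gene of 1 exon within the clustered beta protocadherins, had 253, 284 and 350 reads in control and 147, 139 and 162 in *Ehmt2* GKO libraries. Its log2 fold change of -0.99 lay just short of the fold limit. It crossed the limit when control replicate 1, control replicate 2 or *Ehmt2* GKO replicate 5 was left out. Across the 6 cadherins and protocadherins 2 rose, 0 fell and 4 were not called, so 33.3% were called beside 35.7% of all listed genes tested.

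Claudins form the strands of tight junctions, and here their members went both ways. *Cldn15*, known from intestinal epithelium where it makes cation channels between cells, lies on chromosome 5 from 136966616 to 136975858. It had 632, 835 and 889 reads in control oocytes and 167, 117 and 211 in *Ehmt2* GKO oocytes. The lowest control library stood well above the highest *Ehmt2* GKO library. The level fell from 785.7 ± 119 to 164.2 ± 45.5 normalized counts, a log2 fold change of -2.26 (SE 0.185, adjusted P = 4.38e-08) and the largest fall of the 45 genes.

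*Cldn34d*, an X-linked claudin-like gene, rose from 13, 26 and 23 reads to 70, 40 and 54, with a log2 fold change of 1.39 (SE 0.353, adjusted P = 0.00169). Without control replicate 1 it had a log2 fold change of 1.15 at an adjusted P of 0.0103, and without *Ehmt2* GKO replicate 3 of 1.18 at 0.0125, and was then not called. *Cldn34b2*, also X-linked, was lower at 2552 ± 126 and 1623 ± 51.8 normalized counts (-0.65). It has a near-identical copy, *Cldn34b1*, and the split of reads between copies in the authors' counting is not given in the sources used here, so its level is uncertain.

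**Figure D4:**
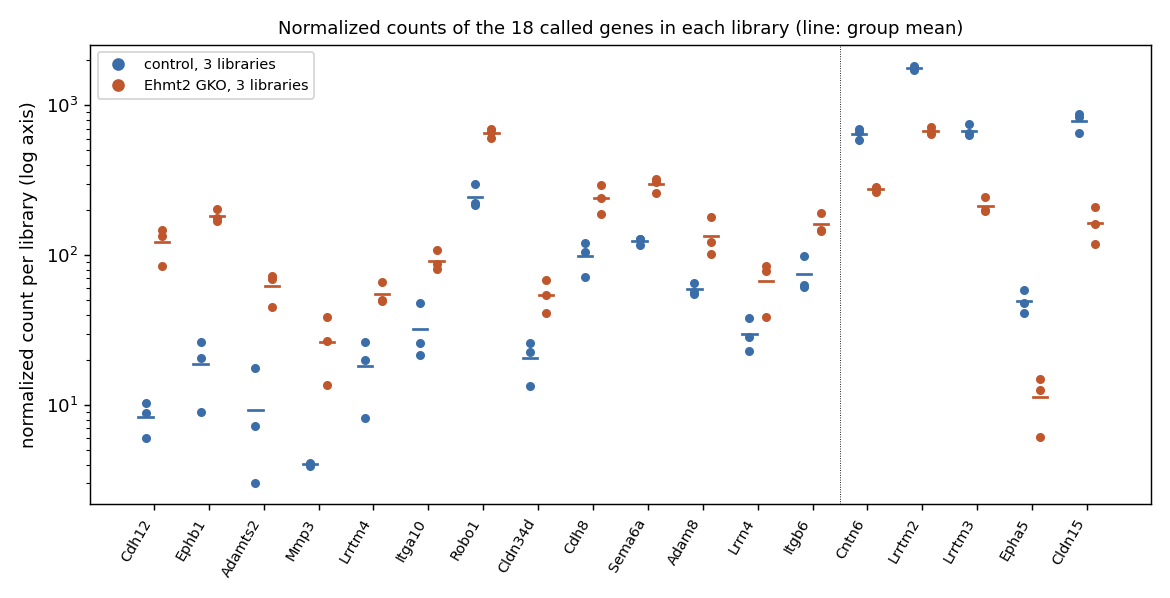
Normalized counts in each library (log axis) for the 18 called genes, with 3 control and 3 *Ehmt2* GKO libraries per gene and a line at each group mean. In none of the 18 do the groups overlap, from *Mmp3* with 3.92 to 4.11 in control libraries to *Lrrtm2* with 1729 to 1845, and they come closest in *Lrrn4*. Groups do not overlap in 98.3% of all listed genes tested either, which follows from how the table was made.

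All 6 integrins and laminins lay above 0, as did 49.4% of all listed genes tested. Of these 6, 2 rose, so 33.3% were called beside 35.7% of all listed genes tested. *Itga10*, the alpha chain of a collagen receptor of cartilage, had 47, 26 and 22 reads in control oocytes and 90, 79 and 108 in *Ehmt2* GKO oocytes. The groups were apart, and the log2 fold change was 1.53 (SE 0.318, adjusted P = 0.000432). It shares 1739 exon bases with an overlapping annotated gene, *Gm42957*, so reads of the pair are uncertain. *Itgb6*, whose chain joins the alpha v chain in an epithelial receptor that activates TGF-beta, had 62, 98 and 63 reads against 150, 144 and 193. Its log2 fold change of 1.12 (SE 0.238, adjusted P = 0.000508) lost its call without control replicate 6 or without *Ehmt2* GKO replicate 5, falling as low as 0.98.

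*Itgb1*, the beta chain shared by most integrins and present on the egg surface, was abundant and differed by less than the fold limit. It had 1788, 1843 and 1886 reads in control oocytes and 2471, 2625 and 2821 in *Ehmt2* GKO oocytes (log2 fold change 0.51). For laminins, the trimeric proteins of basement membranes, 0 of 3 were called. *Lamc1*, the gamma chain of most laminins, had 494, 474 and 556 reads against 1016, 882 and 861 (0.85, SE 0.121). *Lama4*, an alpha chain of vessel walls, stood at 591.7 ± 49.6 and 781.3 ± 6.63 (0.40).

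The proteases that cut matrix and shed membrane proteins held the largest rises after *Cdh12* and *Ephb1*. *Adamts2*, which trims the amino end of procollagens, lies on chromosome 11 from 50602084 to 50807573. It had 7, 3 and 18 reads in control oocytes and 46, 68 and 73 in *Ehmt2* GKO oocytes. Control libraries were themselves spread over a wide range, and the log2 fold change of 2.72 (SE 0.455, adjusted P = 6.94e-05) ranged from 2.30 to 3.58 when single libraries were left out. *Mmp3*, or stromelysin 1, cleaves many matrix proteins and activates other metalloproteinases. It had 4 reads in each control library and 14, 26 and 39 in *Ehmt2* GKO libraries (log2 fold change 2.68, SE 0.529, adjusted P = 0.000291). It remained a rare transcript in both groups.

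*Adam8*, a membrane metalloprotease of leukocytes and other cells, had 54, 65 and 58 reads in control oocytes and 105, 120 and 181 in *Ehmt2* GKO oocytes. *Ehmt2* GKO replicate 5 stood apart from the other two, and without it the log2 fold change of 1.19 (SE 0.257, adjusted P = 0.000569) was 0.93 and not called. Among the proteases that were not called, *Mmp16*, a membrane-bound metalloproteinase, stood at 127.0 ± 25.3 and 231.9 ± 34.6 normalized counts (0.87), and *Adamts4*, an aggrecanase, at 119.0 ± 32.2 and 197.6 ± 48.8 (0.73). *Mmp16* was called when control replicate 6 was left out. *Adam17*, the main sheddase of EGF-family ligands and TNF, was the most abundant protease and stood at 2701 ± 382 and 3396 ± 252 (0.33). *Adamts18* alone among them was lower, at 74.5 ± 16.0 and 39.5 ± 3.56 (-0.91), and was called without control replicate 6. Of the 7 proteases 3 rose, 0 fell and 4 were not called, so 42.9% were called beside 35.7% of all listed genes tested.

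Guidance receptors and their ligands included the rise next in size to that of *Cdh12* and the fall next in size to that of *Cldn15*. *Ephb1*, a receptor tyrosine kinase for ephrin-B ligands that steers axons of the eye and brain, lies on chromosome 9 from 101922128 to 102354693. It had 20, 9 and 27 reads in control oocytes and 173, 173 and 205 in *Ehmt2* GKO oocytes. The levels were 18.7 ± 8.86 and 183.2 ± 18.8 normalized counts, a log2 fold change of 3.28 (SE 0.306, adjusted P = 1.83e-07). It shares 152 exon bases with the noncoding gene *Gm26846*.

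*Epha5*, a receptor for ephrin-A ligands whose CG-rich promoter is printed earlier, went the other way. It had 40, 58 and 49 reads in control oocytes and 13, 6 and 15 in *Ehmt2* GKO oocytes, without overlap (log2 fold change -2.11, SE 0.387, adjusted P = 0.000156). The remaining Eph receptors were abundant and not called. *Epha4*, which binds ephrins of both classes, stood at 1009 ± 31.2 and 1333 ± 25.7 normalized counts (0.40), and *Epha3*, an ephrin-A receptor, at 2297 ± 205 and 1725 ± 224 (-0.41).

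None of the 3 ephrins was called, and they did not share a direction. *Efna5*, a ligand held on the membrane by a lipid anchor, was higher at 2814 ± 128 and 3789 ± 126 normalized counts (0.43). *Efna1*, of the same class, was lower at 718.7 ± 89.3 and 399.9 ± 55.5 (-0.85), and *Efnb2*, a transmembrane ligand of vessels and neurons, at 1158 ± 67.2 and 885.5 ± 22.0 (-0.39). Over the 7 Eph receptors and ephrins 1 rose and 1 fell, so 28.6% were called beside 35.7% of all listed genes tested.

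*Robo1*, the receptor of the Slit repellents, was the most abundant gene that rose. Its counts were 290, 224 and 221 in control oocytes and 679, 592 and 696 in *Ehmt2* GKO oocytes, so that the lowest *Ehmt2* GKO library lay far above the highest control library. The log2 fold change was 1.41 (SE 0.150, adjusted P = 7.21e-07). *Sema6a*, a transmembrane semaphorin that acts through A-type plexins, had 124, 117 and 131 reads against 331, 254 and 311. Its control libraries were tightly grouped at 124.3 ± 6.08 normalized counts, and its log2 fold change was 1.26 (SE 0.171, adjusted P = 1.01e-05). Across the 9 guidance genes 3 rose, 1 fell and 5 were not called, so 44.4% were called beside 35.7% of all listed genes tested.

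Contactins are adhesion proteins of the immunoglobulin family on axons. *Cntn6* had 574, 689 and 679 reads in control oocytes and 272, 277 and 283 in *Ehmt2* GKO oocytes. The *Ehmt2* GKO libraries were close to each other, and the gene fell with a log2 fold change of -1.23 (SE 0.133, adjusted P = 8.40e-07). *Cntn4*, which lies 814 kb from it on chromosome 6, was not called, at 584.7 ± 72.0 and 431.5 ± 39.9 normalized counts (-0.44). *Cntn5* had 103, 72 and 87 reads against 170, 185 and 136 (0.90), and was called without control replicate 1 or without *Ehmt2* GKO replicate 5.

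The Lrrtm genes encode postsynaptic membrane proteins that bind neurexins across the synapse, and their listed members did not share a direction. *Lrrtm2* had 1727, 1724 and 1884 reads in control oocytes and 665, 655 and 715 in *Ehmt2* GKO oocytes. It was the most abundant of the 18 called genes and had the smallest adjusted P of the 45, with a log2 fold change of -1.40 (SE 0.106, adjusted P = 1.90e-08). It lies inside *Ctnna1* on the opposite strand and shares 95 exon bases with it.

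*Lrrtm3* had 636, 745 and 650 reads in control oocytes and 206, 238 and 199 in *Ehmt2* GKO oocytes, a log2 fold change of -1.66 (SE 0.143, adjusted P = 8.31e-08). This gene (chromosome 10, 63928472 to 64090277) lies inside *Ctnna3*, which encodes alpha-T-catenin, on the opposite strand and with 0 shared exon bases. *Ctnna3* fell as well, from 577, 613 and 593 reads to 232, 190 and 160 (log2 fold change -1.62, adjusted P = 1.83e-07). Host and nested gene thus fell by like amounts. Neighbours of other called members moved with them in some cases and not in others. Listed genes near *Cdh12*, *Cdh8*, *Mmp3*, *Cldn34d* and *Cldn15* had the same direction as these members. All 6 listed genes near *Itga10*, all 3 near *Adam8* and the 1 near *Sema6a* were below 0, although these members rose. Near *Itgb6*, *Lrrtm2* and *Adamts2*, 1 listed gene was above 0 and 1 below. The remaining called members had no listed gene nearby.

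*Lrrtm4* rose from 8, 20 and 27 reads to 51, 49 and 66 (log2 fold change 1.59, SE 0.381, adjusted P = 0.00118), and it shares 1543 exon bases with *Gm4409*. *Lrrn4*, a membrane protein with leucine-rich repeats, had 37, 23 and 29 reads against 80, 38 and 85. Its *Ehmt2* GKO replicate 4 came within 1 read of the highest control library, and its log2 fold change of 1.17 (SE 0.349, adjusted P = 0.00448) was lost as a call under more omissions than any other. It was lost without control replicate 2, control replicate 6, *Ehmt2* GKO replicate 3 or *Ehmt2* GKO replicate 5, with values from 0.97 to 1.44 over all omissions. *Lrrc4*, a postsynaptic ligand of netrin-G2, was not called at 126.3 ± 9.12 and 207.9 ± 51.9 normalized counts (0.72).

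The name rule also took in genes whose leucine-rich repeats serve other roles, and none of these was called. All of them but *Lrriq4* were at or above 150 normalized counts in control oocytes. At that level 13.8% of all listed genes tested were called, so few calls were to be had among them. *Lrrfip1*, a mostly cytoplasmic partner of the actin regulator FLII, was the most abundant member, with 10086, 12108 and 10880 reads in control oocytes and 14028, 14201 and 15891 in *Ehmt2* GKO oocytes (0.41). *Lrrc8b* and *Lrrc8e*, subunits of the volume-regulated anion channel, stood at 3283 ± 39.8 and 4281 ± 506 (0.38) and at 428.6 ± 71.3 and 634.2 ± 128 (0.57). *Lrriq4* was at 97.1 ± 12.4 and 156.6 ± 17.4 (0.69). *Lrrc28* was lower at 4709 ± 417 and 3462 ± 469 (-0.44), as was *Lrrcc1*, a protein of the centrosome, at 2327 ± 114 and 1445 ± 105 (-0.69). Of the 11 genes named for leucine-rich repeats 4 were called, or 36.4%, beside 35.7% of all listed genes tested. Without these 11 genes, 14 of 34 members were called, 11 higher and 3 lower. This was 41.2%, beside 35.7% of all listed genes tested.

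Levels per kb of merged exons allow a rough comparison between genes. Merged exons can far exceed the longest transcript, as in *Robo1* with 16511 against 7563 bases, and this lowers the value. On this scale *Cldn34b2*, whose level is uncertain because of its copy, was the highest in control oocytes at 2369 normalized counts per kb. It was followed by *Lrrfip1* at 1709 and *Efna5* at 698.0. The genes with the largest folds remained low on this scale. *Cdh12* reached 19.3 normalized counts per kb in *Ehmt2* GKO oocytes from 1.33 in control, *Ephb1* 26.2 from 2.67 and *Adamts2* 6.68 from 0.993. *Lrrtm2* stood at 296.0 in control and 112.4 in *Ehmt2* GKO oocytes, which is still above every gene that rose.

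From a list of 111 other genes of adhesion, matrix and guidance, 17 were in the table. Of these, 11 lay above 0 and 6 below, with a median log2 fold change of 0.52. Calls were made for 2 that rose and 3 that fell. Over all listed genes tested 18.7% were called higher and 16.9% lower. *Fat3*, a giant cadherin, rose from 140, 175 and 148 reads to 376, 395 and 398 (log2 fold change 1.33, adjusted P = 2.33e-06). *Fbn2*, a fibrillin of elastic matrix, rose from 75, 72 and 87 to 152, 157 and 198 (1.11, adjusted P = 0.000222). *Cd9*, the egg tetraspanin needed for sperm fusion, fell from 721, 1069 and 959 reads to 328, 361 and 370 (-1.38, adjusted P = 6.68e-07). *Vcam1*, a ligand of leukocyte integrins, had 28, 13 and 12 reads against 4, 0 and 1 (adjusted P = 0.000643), and *Ctnna3* was the remaining fall. *Ctnnb1*, the beta-catenin that links cadherins to the cytoskeleton, stood at 5313 ± 333 and 7591 ± 742 normalized counts (0.51), and the coreceptor *Nrp1* at 956.3 ± 77.4 and 1407 ± 113 (0.56). Neither of these was called.

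Few markers of the cells around the oocyte were in the table. It holds only genes that passed the authors' test, so an unlisted marker may be present alike in both groups or absent. Of 24 cumulus and granulosa markers 2 were listed, and of the 6 markers of theca and stroma, 4 of endothelium and 3 of blood 0 were listed. The cumulus and granulosa pair summed to 335.9 to 384.2 normalized counts in control oocytes and 246.3 to 335.2 in *Ehmt2* GKO oocytes. *Ptgs2*, induced in cumulus cells at ovulation, rose from 6, 10 and 14 reads to 107, 74 and 59 (log2 fold change 2.98, adjusted P = 5.46e-06), while *Kitl*, the granulosa ligand of KIT, was lower at 368, 325 and 335 against 225, 254 and 188 (-0.63). Markers outside the table were not analysed here, and the part of surrounding cells in the values above was not tested.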

How the data were processed

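The RNA libraries of 3 control and 3 *Ehmt2* GKO oocyte samples were analysed, with groups and replicate numbers from the labels. The other 11 of the 17 samples measured DNA methylation and were not analysed here. The authors deposited counts, as whole reads per gene and not normalized, on GRCm38 (mm10). The submitters' processing notes name HISAT2 and DESeq2, and the counting program, its strand setting and the annotation are not given in the sources used here. For each gene the authors also deposited a fold (ratio), its log2, an adjusted p-value and the p-value behind it. Of these columns, the adjusted p-value was read to see how rows were selected, and the others were not used. Each of the 6 count columns matched a library.

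Counts were fitted over the whole table with edgeR 4.0.16 in R 4.3.3, by filterByExpr (minimum count 10), TMM factors, the quasi-likelihood F-test and adjustment after Benjamini and Hochberg. Calls needed a fold above 2 and an adjusted P below 0.01. TMM assumes that most genes do not differ, which a table of selected genes may break. Normalized counts are counts divided by the TMM library size, scaled to the mean library. The SE was the log2 fold change over the square root of F. The fits were tested on simulated data. Reads over listed genes give the depth in the report, and low counts give the widest errors.

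Members were matched to GENCODE vM21 by identifier (45 found, 41 with identical coordinates), and copies were searched with blastn 2.17.0 (95% identity over 50% of the longest transcript). A RefSeq promoter was accepted when its start site lay within 500 bases of the gene's start. Python 3.11.15 with pandas 2.3.3, scipy 1.17.1 and matplotlib 3.10.9 was used. The values of 1 member, counted in the totals, are not reported here. Members, gene lists and thresholds were chosen with earlier results of these data known. Among members, the rule for named genes took every called gene, the most abundant member of each family without a call and the 5 most abundant members, and others are named to account for their families. Among other genes it took those called. Further genes named (*Ctnnb1*, *Nrp1*, *Gm38234*, *A330008L17Rik*, *Ptgs2* and *Kitl*) were chosen after their values were seen. Alternatives were other size factors, DESeq2 1.42.0, other filters and thresholds, a test against a fold of 2 and leaving out each library.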

Additional observations from a re-analysis of the deposited data

How the results depend on the processing

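The direction of change did not reverse for any of the 45 genes in the 579 fits of single genes under the 13 alternatives. Little else was possible, since the groups of all 45 did not overlap, as in 98.3% of all listed genes tested. The alternatives that changed only the threshold or tested against a fold of 2 reused the log2 fold changes of the main fit. The number of genes called was 18 with RLE size factors, with DESeq2 and without a filter, and 19 with library size alone. Leaving out 1 library gave 16 to 19 called. Under a minimum of 10 counts in each library, 12 were called, 8 of them higher, since *Adamts2*, *Cdh12*, *Epha5*, *Ephb1*, *Lrrtm4* and *Mmp3* were then not tested. With the fold change tested against 2, 7 were called, 4 higher (*Cdh12*, *Ephb1*, *Adamts2*, *Mmp3*) and 3 lower (*Cldn15*, *Lrrtm2*, *Lrrtm3*), and 260 of all listed genes. An adjusted P below 0.05 with no fold limit called 45, of which 30 were higher and 15 lower, and 2516 of all listed genes. RLE and DESeq2 scaling shifted the median log2 fold change by 0.094. Of the 25 members taken by the rule for named genes, 7 were called alike under every alternative that gave a value. Among these 7, *Adamts2*, *Cdh12*, *Ephb1* and *Mmp3* had no value under the minimum of 10 counts. Members named only to account for their families are outside this count, and some of them, such as *Pcdhb17* and *Cntn5*, gained a call when a library was left out. No paired analysis was possible because control (1, 2, 6) and *Ehmt2* GKO libraries (3, 4, 5) have no number in common. Depth limits the genes of few reads, such as *Mmp3* and *Adamts2*, most.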
